A study of Mus musculus with 12 samples.

Results

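The red cell membrane skeleton and band 3 were described through 10 genes: Sptb, Ank1, Epb42, Slc4a1, Dmtn, Add1, Add2, Tmod1, Tpm1 and Mpp1, of 18194 genes that a probe set names alone. All probe sets that the platform annotation assigned to these genes were taken, which gave 29 of the 45101 probe sets on the array, and none of the 29 also named another gene. The genes had 1 (Tmod1) to 5 (Add2) probe sets each. A probe set is a group of short oligonucleotides against a transcript, and its value here is a signal on a linear scale. Whole blood RNA was measured on 12 Affymetrix Mouse 430 2.0 arrays, each from a different C57Bl/10 mouse 3 months of age, with 4 arrays per group. CH mice spent 14 days in chronic hypoxia, in which inspired oxygen was lowered stepwise from 21% and stood at 8% at harvest. REC mice had the same 14 days of hypoxia followed by 14 days at 21%. NX mice stayed at 21% for 14 days. By these durations REC mice were followed for longer than NX mice, and no normoxic group of the longer time was measured. In REC against NX, recovery therefore cannot be told apart from time. No gene was altered in any group, and blood was not separated into cell types. For CH mice 1 label field reads normoxic, against the titles, the protocol and the study's methods, which give hypoxia and were followed.

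The membrane skeleton is a net of spectrin tetramers under the red cell membrane that lets the cell deform and recover its shape. Ankyrin, helped by protein 4.2, ties beta-spectrin to band 3, the chloride and bicarbonate exchanger through which red cells carry carbon dioxide. The ends of spectrin meet at short actin filaments, the junctional complex, where adducin and tropomodulin cap the filament ends, tropomyosin runs along the filament and dematin and p55 join it to the membrane. These proteins are made in erythroblasts and reticulocytes, the young red cells that still hold RNA, and inherited defects in several of them give spherocytosis or elliptocytosis. Some, such as alpha-adducin and tropomyosin, are also made in many other cells.

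The genes lie on 10 different chromosomes of the mouse assembly GRCm38.p6 (RefSeq), so no pair of them are neighbours. Sptb lies at chr12:76580488-76710547, Ank1 at chr8:22974836-23150501, Epb42 at chr2:121017891-121036877, Slc4a1 at chr11:102348820-102365281, Dmtn at chr14:70602184-70636048, Add1 at chr5:34573664-34632308, Add2 at chr6:86028681-86124409, Tmod1 at chr4:46038940-46116032, Tpm1 at chr9:67022590-67049672 and Mpp1 at chrX:75109733-75131016. Promoters, taken as 250 bases before to 50 bases after the annotated start, were at hand for 7 of the 10 genes. They were searched on both strands for the GATA motif (the form AGATAA, the form AGATAG, the form TGATAA and the form TGATAG), the kind of sequence that GATA1 recognises, and for CACCC, the core of the sequence that KLF1 recognises. GATA1 and KLF1 are transcription factors of red cell precursors. The 4 promoters with a GATA motif are shown, because they carry the motif by which the promoters are compared. Capitals mark the motifs, as read on the printed strand, so that a motif of the other strand appears as its reverse complement.
Sptb, chr12:76710498-76710797, minus strand: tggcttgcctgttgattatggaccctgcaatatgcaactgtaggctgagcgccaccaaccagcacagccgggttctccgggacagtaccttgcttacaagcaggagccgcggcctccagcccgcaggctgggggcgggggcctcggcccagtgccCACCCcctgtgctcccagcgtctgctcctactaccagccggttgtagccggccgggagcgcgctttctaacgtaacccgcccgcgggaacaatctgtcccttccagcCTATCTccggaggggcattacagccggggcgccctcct
Epb42, chr2:121036828-121037127, minus strand: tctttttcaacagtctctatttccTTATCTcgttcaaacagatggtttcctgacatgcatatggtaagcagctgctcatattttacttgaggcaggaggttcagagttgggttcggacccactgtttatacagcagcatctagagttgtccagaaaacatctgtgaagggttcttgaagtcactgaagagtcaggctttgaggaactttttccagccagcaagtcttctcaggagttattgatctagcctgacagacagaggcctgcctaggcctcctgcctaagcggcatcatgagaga
Add2, chr6:86028431-86028730, plus strand: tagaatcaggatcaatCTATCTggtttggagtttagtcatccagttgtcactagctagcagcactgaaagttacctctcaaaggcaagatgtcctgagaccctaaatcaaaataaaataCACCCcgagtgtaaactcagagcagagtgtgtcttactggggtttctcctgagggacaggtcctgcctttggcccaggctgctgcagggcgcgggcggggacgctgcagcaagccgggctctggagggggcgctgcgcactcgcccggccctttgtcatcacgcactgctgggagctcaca
Mpp1, chrX:75130967-75131266, minus strand: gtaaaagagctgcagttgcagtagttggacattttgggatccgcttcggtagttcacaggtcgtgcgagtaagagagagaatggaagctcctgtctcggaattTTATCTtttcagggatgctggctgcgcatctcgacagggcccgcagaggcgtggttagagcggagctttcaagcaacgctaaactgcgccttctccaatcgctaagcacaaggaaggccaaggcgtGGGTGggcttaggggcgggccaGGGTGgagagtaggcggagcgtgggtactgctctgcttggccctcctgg

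The GATA motif occurred in 4 of the 7 promoters (Sptb, Epb42, Add2 and Mpp1), and in 29.8% of all 32851 promoters in the RefSeq table. CACCC occurred in 4 of the 7 (Sptb, Add2, Tmod1 and Mpp1), and in 57.5% of all promoters. Both occurred in 3 of the 7, Sptb, Add2 and Mpp1, and in 14.9% of all promoters. In Epb42, Add2 and Mpp1 the GATA motif began 226, 234 and 147 bases before the start, while in Sptb it began 12 bases after it. The promoters of Add1 and Tpm1 held neither. These matches describe letters in a window and show no binding.

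The arrays differed in ways that bear on every value below. Each array had been scaled to the same trimmed mean signal of 150. The hybridization controls, transcripts that are added in known amount, had mean log2 signals of 14.0 to 14.6 in CH, 11.6 to 12.2 in REC and 12.3 to 13.1 in NX. The 100 brightest probe sets held 19.9 to 22.1% of the total signal in CH, 8.46 to 10.3% in REC and 10.6 to 13.8% in NX. The ratio of 3′ to 5′ actin control probe sets was 1.91 to 2.11 in CH, 1.54 to 1.73 in REC and 1.61 to 1.86 in NX. Scaling the arrays on the 18 hybridization control probe sets instead moved the median change of all probe sets to -0.71 in CH against NX and to 0.40 in REC against NX on the log2 scale, against 0.11 and -0.10 as deposited, and the results that this turned are named below. The summed signal of 16 measured genes of an erythroid list was 229009 to 357738 in CH, 11472 to 36007 in REC and 54204 to 79641 in NX, and all 16 were called higher in CH than in NX. Of the blood cell markers, 3 of 3 B cell and 4 of 4 T cell genes and 2 of 4 monocyte genes were lower in CH than in NX, and none of 6 platelet and 5 neutrophil genes passed the test. Of 6 endothelial and smooth muscle genes, Myh11 was higher in CH, a gene named after its value was seen.

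All 10 genes were higher in CH than in NX at their main probe set, that with the highest mean log2 signal, by 2.77-fold (Add1) to 20.3-fold (Ank1). Over all 29 probe sets, 25 were called higher and none lower in CH, where 8.04% of all probe sets were called higher and 13.9% lower. Called means an adjusted p under 0.05 in limma, corrected for 45101 probe sets, together with a difference of 2-fold or more on the scale of log2(signal + 16), which understates changes of dim probe sets. The median log2 change of the 29 was 2.59, beside 0.11 over all probe sets. On the hybridization control scaling, which moved the median of all probe sets to -0.71, 14 were called higher and 1 lower. The shares of all probe sets called on that scaling are not given. After recovery Sptb, Ank1, Epb42, Slc4a1, Dmtn and Mpp1 were called lower in REC than in NX, and Add1, Add2, Tmod1 and Tpm1 did not pass the test, while the difference between these sets of genes was not tested. The REC call held under all 24 alternatives for Epb42 and Slc4a1, was lost under 11 for Sptb and 13 for Mpp1, and was lost for Ank1 and Dmtn with the mean of the gene's probe sets. Over the 29 probe sets, 7 were called lower and none higher in REC against NX, where 2.74% and 1.62% of all probe sets were, and the median change was -0.53 beside -0.10 over all. CH against REC gave 24 of 29 called higher and none lower, where 12.6% and 15.2% of all probe sets were, and the median change was 3.22 beside 0.25, with 15 higher and 2 lower on the hybridization control scaling. The comparisons share arrays and are not independent of each other. In whole blood, more cells of a type and more RNA per cell cannot be told apart.

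**Figure D1:**
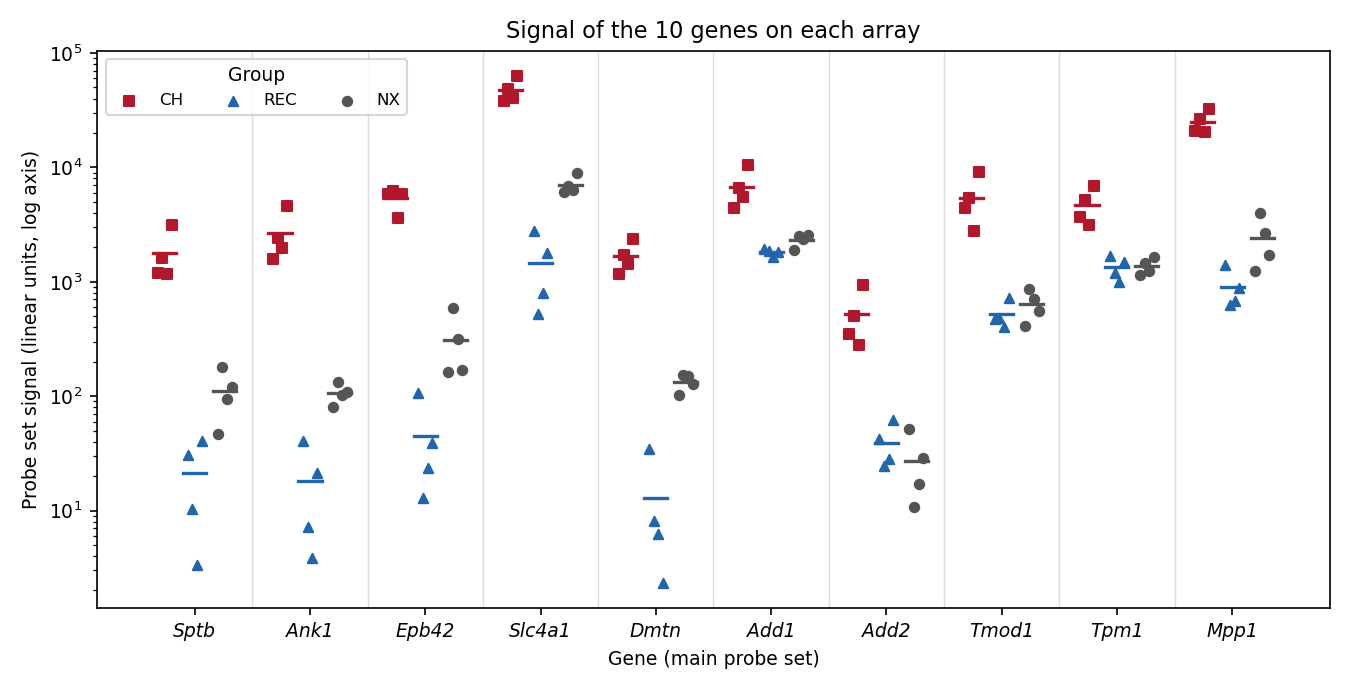
Signal of the main probe set of each gene (log axis) on every array, with squares for CH, triangles for REC and circles for NX and a bar at each group mean. In all 10 genes every CH array lies above every REC and NX array, and for Sptb, Ank1, Epb42, Slc4a1 and Dmtn every REC array also lies below every NX array.

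Sptb encodes beta-spectrin, the chain of the spectrin net that carries the ankyrin site. Its main probe set (1450556_at) had signals of 1194, 1614, 1178 and 3108 in CH, of 30.7, 10.3, 3.34 and 40.2 in REC and of 46.3, 179, 94.8 and 121 in NX. The 3 groups did not overlap, with CH highest and REC lowest, and the highest REC array lay just under the lowest NX array. The log2 change was 3.82 ± 0.43 (SE, n = 4 per group, adjusted p = 2.26e-05) in CH against NX and 5.60 in CH against REC. Between REC and NX it was -1.78 ± 0.43 with an adjusted p of 0.0276, and this call was not firm. Its adjusted p became 0.0924 without REC replicate 2, 0.103 without REC replicate 3, 0.0885 without NX replicate 2, 0.0651 without NX replicate 3 and 0.0828 without NX replicate 4. Over 24 alternatives the adjusted p ran between 2.44e-04 and 0.172. The gene's other probe set, 1455226_at, read 54.6 ± 21.8 in CH, 69.2 ± 32.3 in REC and 56.9 ± 25.3 in NX (SD, n = 4 each), with overlapping groups, and was called in no comparison.

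Ank1 encodes ankyrin 1, the link between beta-spectrin and band 3. At 1425677_a_at its signals were 1593, 2393, 1983 and 4608 in CH, 40.7, 7.11, 3.82 and 21.5 in REC and 80.4, 132, 103 and 109.5 in NX. All CH arrays were above all NX arrays, and all NX arrays above all REC arrays. Its log2 change was 4.34 ± 0.37 (adjusted p = 3.33e-06) in CH against NX, -1.94 ± 0.37 (adjusted p = 0.00844) in REC against NX and 6.28 in CH against REC. Of the 3 other probe sets, 1419421_at and 1452512_a_at were called higher in CH, by 4.13 and 2.71, and 1443291_at was not. None of these 3 was called in REC against NX, where their log2 changes were -0.53, -0.51 and 0.32, and the mean of all 4 probe sets gave -0.67 with an adjusted p of 0.255. The REC call of Ank1 therefore rests on its main probe set. Mean signals in REC and NX were 28.5 and 61.1 at 1419421_at, 3.76 and 13.2 at 1452512_a_at and 29.5 and 20.1 at 1443291_at. At signals this low the added 16 shrinks log2 changes, so these probe sets could show little of a fall.

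Epb42 encodes protein 4.2, a relative of transglutaminases without enzyme activity that binds band 3 and ankyrin. Its main probe set (1417337_at) read 5815, 6205, 3598 and 5892 in CH, 106, 12.9, 23.6 and 38.9 in REC and 162, 594, 318 and 169 in NX. The 4 REC arrays lay below the NX arrays, and CH replicate 3 was the lowest CH array by a wide margin. On the log2 scale the change was 4.20 ± 0.45 (adjusted p = 1.70e-05) in CH against NX, -2.44 ± 0.45 (adjusted p = 0.00732) in REC against NX and 6.65 in CH against REC, or 100.3-fold. That was the largest CH against REC change among the 29 probe sets. The REC call held under all 24 alternatives, with log2 changes between -2.95 and -1.64. The gene's second probe set, 1417338_at, read 662 ± 185 in CH, 21.3 ± 5.56 in REC and 51.0 ± 9.86 in NX, with a log2 change of 3.30 (adjusted p = 1.74e-06) in CH and of -0.85 (adjusted p = 0.0732, not called) in REC, although its REC and NX arrays did not overlap.

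Slc4a1 encodes band 3, the anion exchanger and the main anchor of the skeleton. At 1434502_x_at it read 38123, 48646, 40334 and 62879 in CH, 2771, 527, 801 and 1772 in REC and 6138, 6834, 6335 and 8992 in NX. The groups did not overlap, and the REC arrays were spread more widely for their level than the NX arrays. The change on the log2 scale was 2.73 ± 0.41 (adjusted p = 2.60e-04) in CH against NX, -2.52 ± 0.41 (adjusted p = 0.00376) in REC against NX and 5.26 in CH against REC. The suffix of this probe set marks oligonucleotides that can bind several similar transcripts, yet 1416464_at, which lacks it, gave 2.74 in CH and -2.73 in REC. Quantile normalization, which gives all arrays the same distribution, left 0.90 in CH against NX with an adjusted p of 0.167, and the REC call held under all 24 alternatives. The dim probe set 1431743_a_at read 421 ± 141 in CH, 7.73 ± 7.76 in REC and 24.6 ± 10.7 in NX, was called higher in CH by 3.41 and was not called in REC (-0.79).

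Dmtn encodes dematin, which bundles actin at the junctional complex. At 1460223_a_at it read 1159, 1709.8, 1422 and 2382 in CH, 34.7, 8.13, 6.25 and 2.35 in REC and 102, 153, 151 and 129 in NX. The groups did not overlap, and 3 of the REC arrays were under 10. The log2 change was 3.46 ± 0.32 (adjusted p = 6.28e-06) in CH against NX, -2.48 ± 0.32 (adjusted p = 0.00102) in REC against NX and 5.94 in CH against REC. The other 2 probe sets were dim in every group, at no more than 86.7 on any array, and neither was called in REC against NX (0.32 and 0.06). In CH, 1438189_s_at was called higher (1.22) and 1445439_at was not (0.79). With the mean of the 3 probe sets the REC difference was -0.70 and was not called (adjusted p = 0.170).

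Mpp1 encodes p55, the palmitoylated membrane protein that joins glycophorin C to the junctional complex. At 1450919_at it read 20768, 26391, 20381 and 32522 in CH, 1403, 631, 678 and 884 in REC and 1238, 3972, 2656 and 1711 in NX. CH arrays stood apart from both other groups, while REC replicate 1 lay above NX replicate 1, so that REC and NX overlapped. Its log2 change was 3.49 ± 0.36 (adjusted p = 1.25e-05) in CH against NX and 4.82 in CH against REC. For REC against NX it was -1.33 ± 0.36 with an adjusted p of 0.0474, and the call was lost under 13 of 24 alternatives, over which the adjusted p ran between 6.77e-04 and 0.415. Its adjusted p was 0.0570 without CH replicate 2, 0.150 without REC replicate 2, 0.147 without REC replicate 3, 0.0951 without REC replicate 4, 0.137 without NX replicate 2, 0.125 without NX replicate 3 and 0.0752 without NX replicate 4. With the hybridization control scaling it was -0.53 (adjusted p = 0.415). The second probe set, 1423243_at, read 92.9 ± 20.3 in CH, 1.21 ± 0.827 in REC and 15.4 ± 6.10 in NX, and its REC change of -0.85 (adjusted p = 0.0485) was short of 2-fold on this scale.

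Adducin is built from alpha and beta subunits and caps actin filaments while recruiting spectrin. Add1, the alpha subunit, is made in many cell types. At 1450054_at it read 4450.4, 6625, 5535 and 10514 in CH, 1946, 1862, 1653 and 1835 in REC and 1884, 2505, 2363 and 2574 in NX. CH arrays were above all others, and REC and NX overlapped. On the log2 scale the change was 1.47 ± 0.26 (adjusted p = 8.78e-04) in CH against NX, -0.34 ± 0.26 (adjusted p = 0.569) in REC against NX and 1.81 in CH against REC, but on the hybridization control scaling these turned to -0.14, 0.46 and -0.60, none of them called. Quantile normalization also ended the Add1 calls, with 0.46 (adjusted p = 0.0940) in CH against NX and 0.98, short of 2-fold, in CH against REC. Against the median of all probe sets on the hybridization control scaling, Add1 stood 0.57 higher in CH against NX. Its 2 other probe sets, 1420953_at and 1420954_a_at, gave 1.57 and 1.23 in CH against NX. In REC against NX they gave -0.18 and -0.50, neither called, although all REC arrays of 1420954_a_at lay below all NX arrays.

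Add2, the beta subunit, is known from red cells and brain. At 1451914_a_at it read 352, 506, 278 and 933 in CH, 41.8, 24.6, 28.0 and 61.5 in REC and 51.6, 10.7, 17.0 and 28.9 in NX. CH stood apart, and REC and NX overlapped at low signal. The change on the log2 scale was 3.57 ± 0.38 (adjusted p = 1.61e-05) in CH against NX and 3.18 in CH against REC. In REC against NX it was 0.40 ± 0.38 (adjusted p = 0.672), turned to -0.27 with the mean of the gene's 5 probe sets, and reached 1.09 with an adjusted p of 0.0249 on the hybridization control scaling, so it has no settled direction. The probe set 1435287_at read 982, 1313, 700.0 and 2817 in CH, 11.9, 0.625, 5.90 and 0.505 in REC and 8.76, 32.9, 19.8 and 36.9 in NX. Its log2 change of 5.04 ± 0.39 (adjusted p = 1.74e-06) was the largest CH against NX change among the 29 probe sets, larger than that of the gene's main probe set. The other 3 were called higher in CH by 1.12 to 2.34, and all 5 were called higher in CH against REC. In REC against NX, 1435287_at gave -0.94, 1421975_a_at -0.42, 1431076_at 0.20 and 1450442_at -0.56, none of them called. All REC arrays of 1450442_at lay below all NX arrays.

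Tmod1 encodes tropomodulin 1, which caps the slow-growing ends of actin filaments. Its probe set, 1422754_at, read 4417, 5365, 2805 and 9139 in CH, 472, 487, 399 and 722 in REC and 412, 861, 706 and 553 in NX. CH was above both other groups, and REC and NX overlapped almost fully. The log2 change was 2.99 ± 0.35 (adjusted p = 3.13e-05) in CH against NX and 3.25 in CH against REC. Between REC and NX it was -0.26 ± 0.35 (adjusted p = 0.780) and 0.53 on the hybridization control scaling, on which CH against REC fell short of the call at 0.85 (adjusted p = 0.0725).

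Tpm1 encodes an alpha-tropomyosin, an actin filament protein also known from muscle and platelets. At 1423721_at it read 3694, 5199.9, 3113 and 6932 in CH, 1677, 1198, 1004 and 1486 in REC and 1151, 1455, 1237 and 1642 in NX. The CH arrays were above the rest, and REC and NX covered nearly the same range. Its log2 change was 1.72 ± 0.28 (adjusted p = 4.59e-04) in CH against NX, which became 0.12 (adjusted p = 0.786) on the hybridization control scaling. In CH against REC it was 1.77, but -0.65 on that scaling. For REC against NX it was -0.05 ± 0.28 (95% interval -0.68 to 0.59), with the sign turning to 0.11 under median centring, 0.08 without REC replicate 3 and 0.05 without NX replicate 4. Its probe sets disagreed in size: 1423049_a_at and 1456623_at gave 2.59 and 2.40 in CH against NX and -0.80 and -0.93 in REC against NX (adjusted p = 0.283 and 0.0931), and 1447713_at, with no signal above 18.5 on any array, was called nowhere. Platelet markers had summed signals of 32383 to 54940.3 in CH, 25351 to 39293 in REC and 28217 to 51489.5 in NX, with overlapping groups, and their part in the Tpm1 result was not tested.

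**Figure D2:**
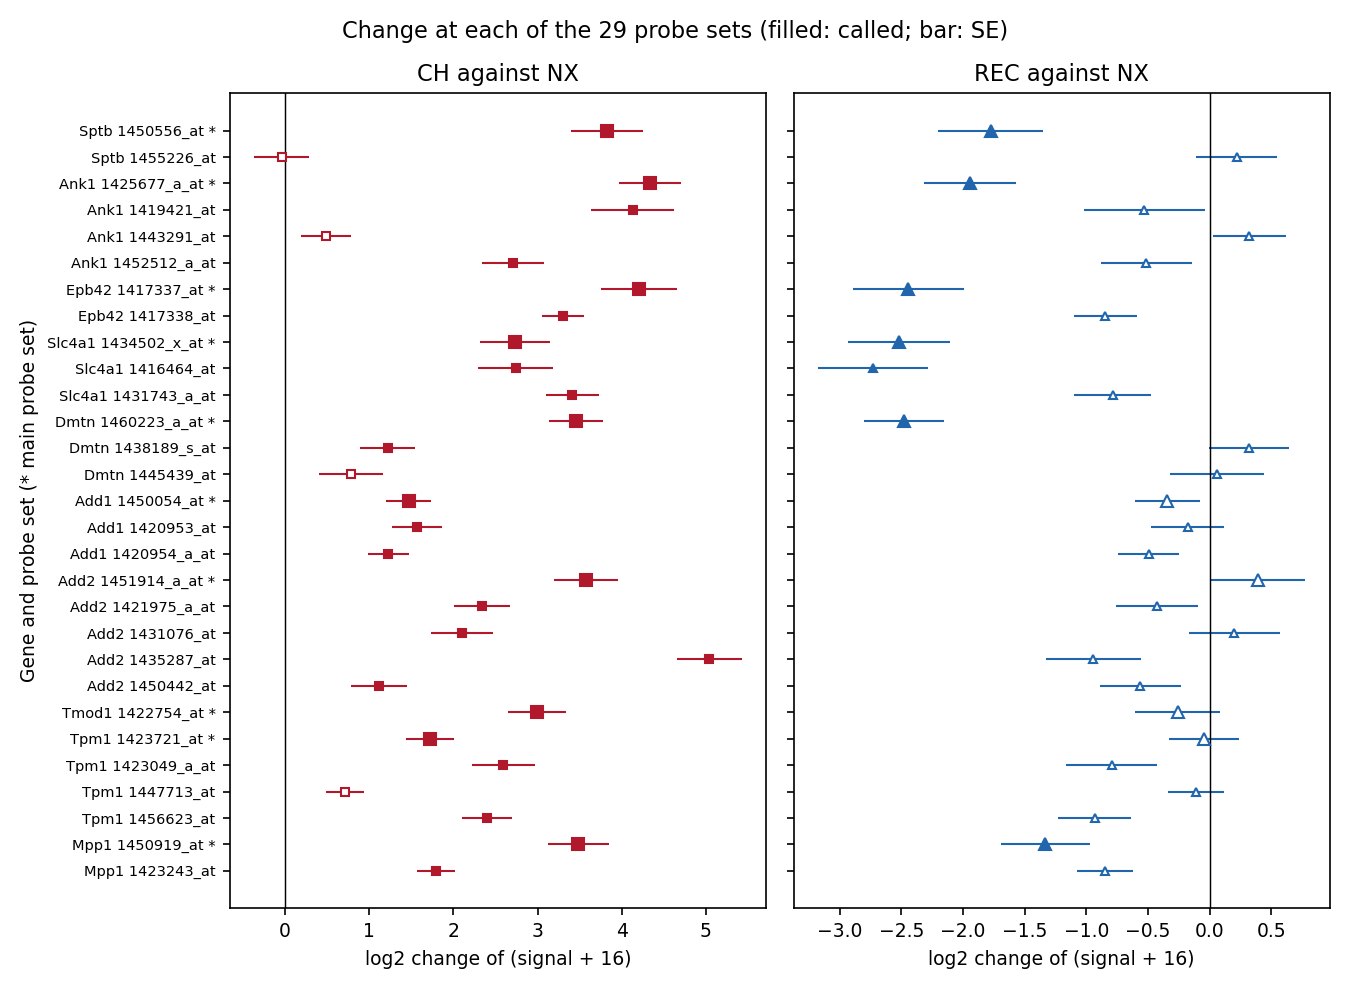
Log2 change of signal + 16 at each of the 29 probe sets, CH against NX on the left and REC against NX on the right, with bars of 1 SE, filled points where the change was called and an asterisk at the main probe set of a gene. On the left 25 points are filled and lie right of 0, and on the right the 7 filled points are 6 main probe sets and Slc4a1 1416464_at.

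Counted by whether arrays overlapped, 24 of the 29 probe sets had all CH arrays above all NX arrays, as did 10.2% of all probe sets. In REC against NX 11 of 29 had all REC arrays below all NX arrays, as did 11.8% of all probe sets, and none had all REC arrays above all NX arrays, as 8.58% of all probe sets had. CH against REC gave 25 of 29 with all CH arrays above, and 16% of all probe sets. The 4 probe sets that were not called in CH against NX were Sptb 1455226_at, Ank1 1443291_at, Dmtn 1445439_at and Tpm1 1447713_at, none of which passed 117 on any array.

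The spread within a group was shared by the genes. CH replicate 4 was the highest CH array in 9 of the 10 genes, while CH replicate 3 was lowest in 6 and CH replicate 1 in 4. REC replicate 1 was highest in 7 genes, and REC replicates 2 and 3 were lowest in 4 and 5. NX replicate 1 was lowest in 9 genes. The mean log2 signal of the 16 erythroid list genes was likewise highest in CH replicate 4 (12.4) and REC replicate 1 (8.49) and lowest in NX replicate 1 (8.95) within each group. It was lowest in CH replicate 1 (11.7) and REC replicate 2 (7.48), not in the replicates 3 (11.8 and 7.56). NX replicate 1 also had 19.6% of all probe sets under a signal of 16, beside 29.1 to 30.6% in the other NX arrays. Across the 12 arrays, Pearson's r between the main probe sets of 2 members ran between 0.797 (Slc4a1 and Add2) and 0.992 (Sptb and Ank1). These values describe arrays that fall into 3 groups and share one scaling, and they carry no test.

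Changes were next taken relative to the erythroid list on the same array, which asks how the members moved beside other transcripts of red cell precursors and removes any factor common to all probe sets of an array, apart from the effect of the added 16, though not a normalization that reshapes the distribution. The list holds heme and iron genes (Alas2, Fech, Uros, Slc25a37 and Tfrc), blood group and membrane proteins (Rhag, Rhd, Kel, Ermap and Icam4), regulators (Klf1, Gata1, Hemgn and Trim10) and the enzymes Bpgm and Car2. In CH against NX, Ank1 and Epb42 stood above the list, with relative log2 changes of 1.49 ± 0.33 (adjusted p = 3.36e-04) and 1.35 ± 0.41 (adjusted p = 0.00408). In the relative fits of all 3 comparisons most probe sets were called in the same direction. The adjustment over all probe sets is therefore mild, and relative calls are less strict than the calls above. Genes of the list itself ran from -1.11 (Alas2) to 1.26 (Rhd) around its mean, so shifts of nearly this size are not particular to the members. Of all 29 probe sets 4 were called higher relative to the list, where 0.146% of all probe sets were, and 9 under quantile normalization. Add1 (-1.38) and Tpm1 (-1.13) stood below it, among 11 of 29 called lower, but so did 97.1% of all probe sets, and nothing can be read from those 11. The main probe sets of Sptb (0.97), Slc4a1 (-0.12), Dmtn (0.60), Add2 (0.72), Tmod1 (0.14) and Mpp1 (0.63) were not called relative to the list. The other probe sets called higher relative to it were Ank1 1419421_at (1.28) and Add2 1435287_at (2.19). For band 3, the relative change of -0.12 had an SE of 0.36. Its bright 1416464_at stood at -0.11 and its dim 1431743_a_at at 0.56 ± 0.35, neither called. Whether signals as high as those of band 3 in CH still rise in proportion to RNA was not tested.

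Between REC and NX, the main probe sets of Epb42 (-1.18), Slc4a1 (-1.26) and Dmtn (-1.22) were lower relative to the erythroid list, with adjusted p of 0.0222, 0.0102 and 0.00902. With Slc4a1 1416464_at (-1.47) they made 4 of 29 probe sets called lower, where 0.259% of all were. The other probe sets of these genes stood above the list. Dmtn 1438189_s_at (1.58) and 1445439_at (1.32) were called higher, while Epb42 1417338_at (0.42) and Slc4a1 1431743_a_at (0.48) were not called relative to the list. Sptb (-0.52), Ank1 (-0.68) and Mpp1 (-0.07) were not called relative to it. Add2 (1.66), Tmod1 (1.00) and Tpm1 (1.22) were called higher relative to the list, among 10 of 29, but 57.8% of all probe sets were as well. The erythroid list itself had 8 of 16 genes called lower in REC against NX and none higher. Around their own mean the list genes ran from -1.43 (Slc25a37) to 1.65 (Gata1), so shifts of this size are not particular to the members. In CH against REC, Sptb (1.48), Ank1 (2.17), Epb42 (2.53), Slc4a1 (1.14) and Dmtn (1.82) were higher relative to the list, among 7 of 29 where 0.271% of all were, and Add1 (-2.30) and Tpm1 (-2.35) were lower among 13 of 29 where 98.6% of all were. Genes of the list ran from -2.01 (Gata1) to 1.95 (Kel) around its mean in that comparison.

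**Figure D3:**
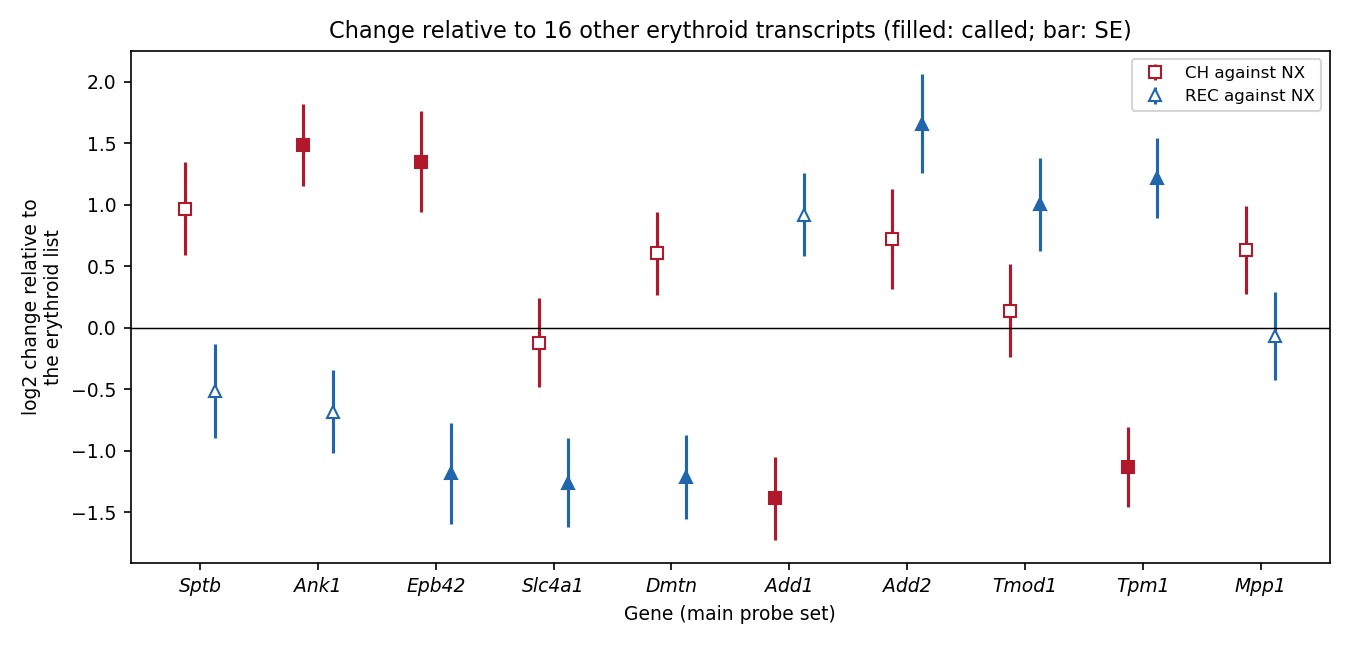
Log2 change of each gene's main probe set relative to the mean of 16 erythroid list genes on the same array, squares for CH against NX and triangles for REC against NX, with bars of 1 SE and filled points where the change was called. Ank1 and Epb42 lie above 0 in CH, and Epb42, Slc4a1 and Dmtn lie below 0 in REC. The other probe sets of the genes are not drawn.

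Most members have relatives that are known from other cells. Of 24 measured paralogs and relatives, 2 were called higher in CH than in NX and 6 lower, where 8.04% and 13.9% of all probe sets were, so that the higher count lies near the share of all probe sets, and their median log2 change was -0.15, beside 0.11 over all probe sets. Sptbn1, the beta-spectrin of most other cells, read 565, 900.2, 1644 and 1239 in CH, 2585, 2161, 1776 and 2113 in REC and 2764, 3014, 3008 and 3539 in NX. Its log2 change was -1.59 ± 0.29 (adjusted p = 0.00109) in CH against NX, opposite in sign to Sptb. Add3, the gamma-adducin of many tissues, fell by 2.06 and Tmod3, the ubiquitous tropomodulin, by 1.91 on the log2 scale in CH against NX, with adjusted p of 0.00121 and 1.05e-04. Epb41l2, a relative of protein 4.1, fell by 1.71. Ank3, ankyrin G, had a log2 change of 0.91 (adjusted p = 0.0411), short of 2-fold, and was called higher in CH against REC (1.47, adjusted p = 0.00198). The exceptions were Mpp2, a relative of p55 best known from brain, which was higher by 3.36 ± 0.39 (adjusted p = 2.84e-05), and Tpm2 (1.47), a tropomyosin known from muscle, named after its value was seen. In REC against NX 1 was higher and 1 lower, where 1.62% and 2.74% of all probe sets were. In CH against REC 2 were higher and 8 lower, where 12.6% and 15.2% of all probe sets were. On the hybridization control scaling 1 was higher and 11 were lower in CH against NX. That scaling moved the median of all probe sets to -0.71, so the 11 are not read as a result about these genes. The falls of Sptbn1, Add3 and Tmod3 ran beside lower summed signals of lymphocyte and monocyte markers, whose part in them was not tested. Those sums were 1701 to 10069 in CH, 17124 to 19573 in REC and 13758.5 to 16699.9 in NX over 3 B cell genes, 744 to 3203 in CH, 7007 to 7668 in REC and 3455 to 5176 in NX over 4 T cell genes, and 543 to 2060.2 in CH, 5094 to 5374.5 in REC and 2093 to 3805 in NX over 4 monocyte genes.

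The ratio of a member to its relative on the same array removes a factor common to the array, apart from the effect of the added 16. The 10 pairs were chosen after the values had been seen, so the ratios are a description with no test, and a ratio restates in part the member's own change. In CH against NX the mean log2 ratio was higher by 5.41 for Sptb to Sptbn1, 3.43 for Ank1 to Ank3, 4.32 for Epb42 to Tgm2, 3.87 for Slc4a1 to Slc4a2, 4.28 for Dmtn to Svil, 3.53 for Add1 to Add3, 5.63 for Add2 to Add3, 4.90 for Tmod1 to Tmod3 and 2.68 for Tpm1 to Tpm3. The pairs of Add1 and Add2 share Add3, and the Tpm3, Tgm2 and Svil probe sets can bind several similar transcripts. The ratio of Mpp1 to Mpp2 differed by 0.13, and turned to -1.55 under quantile normalization and -0.19 with a pseudocount of 1. For REC against NX the mean log2 ratio differed by -3.69 for Epb42 to Tgm2, -2.45 for Slc4a1 to Slc4a2, -2.35 for Dmtn to Svil, -1.38 for Ank1 to Ank3, -1.26 for Sptb to Sptbn1 and -0.41 for Tpm1 to Tpm3. Part of the Epb42 ratio is Tgm2 itself, which was called higher in REC (1.25, adjusted p = 0.0210 in limma), while Epb42 changed by -2.44. It differed by 0.68 for Add2 to Add3, 0.30 for Mpp1 to Mpp2, 0.03 for Tmod1 to Tmod3 and -0.06 for Add1 to Add3. The Mpp1 ratio in REC against NX is not settled, since it ran between -0.26 and 1.95 over the alternatives. Mpp2 read 18.3, 0.933, 10.9 and 1.22 in REC, so the added 16 weighs heavily on that ratio. With a pseudocount of 1 the Ank1 ratio was -2.26, and the Sptb and Ank1 ratios were -1.74 and -1.77 on the hybridization control scaling. The Mpp1 ratio in CH against REC was -0.17, and -1.29 under quantile normalization and -2.14 with a pseudocount of 1.

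**Figure D4:**
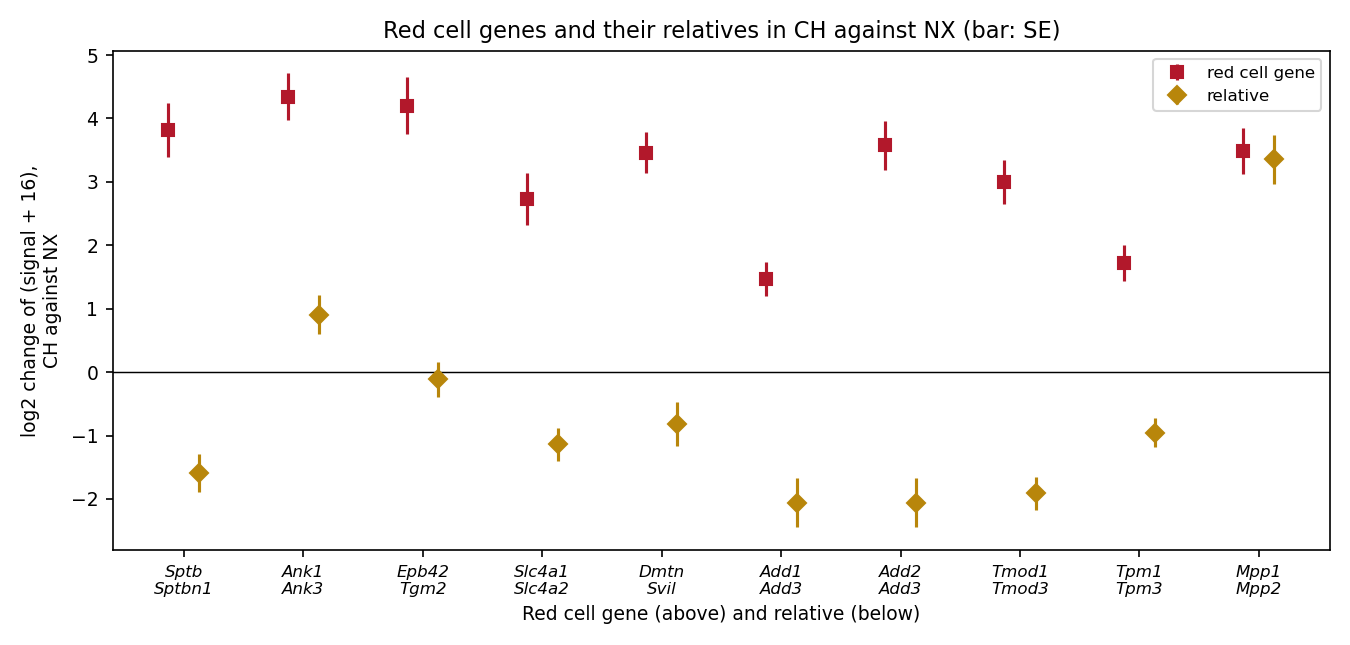
Log2 change in CH against NX of each red cell gene (squares) and of its relative (diamonds), with bars of 1 SE. The squares lie at 1.47 or above, and the diamonds lie between -2.06 and 0.91 except for Mpp2 at 3.36.

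Partners of the skeleton in the same membrane were read from a list of 19 genes, of which 16 were measured. In CH against NX 10 were higher and 2 lower, where 8.04% and 13.9% of all probe sets were. The lower count lies near the share of all probe sets. The median log2 change of the 16 was 1.56. The largest increases were of Rhd (4.11) and Rhag (3.43), members of the Rh complex that binds ankyrin, of Kel (4.09), the Kell blood group protein, and of Icam4 (2.78), the Landsteiner-Wiener blood group protein. These 4 are also in the erythroid list. The 2 lower ones were Capza1 (-1.43) and Capza2 (-1.52), subunits of the general actin capping protein, named after their values were seen. In REC against NX Kel alone was lower (-1.97, adjusted p = 0.00831) and none was higher, where 2.74% and 1.62% of all probe sets were. In CH against REC 10 were higher and 5 lower, where 12.6% and 15.2% of all probe sets were, with Kel at 6.06 and Rhag at 4.56. On the hybridization control scaling, with the median of all probe sets at -0.71, 4 partners were higher and 6 lower in CH against NX.

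For each member the probe set of another gene with the most similar pattern over the 12 arrays was looked up, as a description. Epb42 lay nearest to Car2, a red cell carbonic anhydrase (r = 0.994), Dmtn to Sox6, a transcription factor of red cell precursors (r = 0.997), Slc4a1 to Mkrn1, a ubiquitin ligase (r = 0.997), and Mpp1 to Fam210b (r = 0.998). Sptb lay nearest to Eif5, a translation initiation factor (r = 0.995), and Ank1 to Fbxo9, an F-box protein (r = 0.998). In the actin group, Add1 lay nearest to Wasf2, a regulator of actin assembly (r = 0.994), Add2 to Fzr1 (r = 0.983), Tmod1 to Tstd2 (r = 0.994) and Tpm1 to Lmna, the lamin A and C gene (r = 0.991). The points share the array scaling and the 3 groups.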

How the data were processed

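Values were taken for 12 Affymetrix Mouse 430 2.0 arrays, 1 mouse each, 4 per group, with groups read from the sample titles. The deposited values are linear intensities, which the authors' processing had scaled to a 2% trimmed mean of 150 on each array; the study's methods name the GeneChip Operating System for storing raw intensities and GC-RMA in Partek for the authors' own analysis, but which program made the deposited linear values is not stated, and no detection calls, background or batches were used. The labels describe amplification by Ribo-SPIA and the study's methods a one-cycle labelling, so the labelling is uncertain. Probe sets were named from the platform annotation, updated by gene number to RefSeq symbols (GRCm38.p6), which also gave loci and promoters: 34958 of 45101 probe sets named 1 gene.

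Group means of log2(signal + 16) over the 12 arrays were fitted in limma (3.58.1, R 4.3.3; 9 residual degrees of freedom), with Benjamini-Hochberg adjustment over all 45101 probe sets. Called means an adjusted p under 0.05 and at least 2-fold. The main probe set of a gene has the highest mean log2 signal over all arrays. In relative fits the mean log2 value of 16 measured of 19 listed erythroid genes was subtracted on each array first. Ratios of a member to a relative were taken per array and given as differences of group means, with no test. The fit was tested on simulated data. Figures were drawn with matplotlib 3.10.9 in Python 3.11.15.

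All probe sets of the 10 genes were described. From the partner and paralog lists, the 4 called genes with the largest absolute change per comparison could be named, beside Add3, Tmod3, Sptbn1 and Ank3. The members and lists were chosen with earlier results of these data known. The replicate numbers do not tie an animal of one group to one of another, and p-values measure the spread between mice. Precision is limited by the number of arrays. The highest correlation between 2 arrays was 0.977, so none was counted as a duplicate. Alternatives were 23 settings, among them other scalings, another pseudocount, a filter on dim probe sets (signal of at least 50 in at least 4 arrays) and leaving out each array, and for a gene the mean of its probe sets. Some listed genes are not reported here.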

Additional observations from a re-analysis of the deposited data

Results flagged for a closer look

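Epb42 had 1 array apart from the rest of its group: CH replicate 3 read 3598 at the main probe set, below the 5815, 6205 and 5892 of the other CH arrays, with a gap to its nearest neighbour that passed Dixon's critical value for 4 arrays. The test was run on 30 groups of 4 arrays, 10 genes in 3 groups, and 1 was picked out, where chance picks out about 1 in 20. CH replicate 3 was also the lowest CH array in 6 of the 10 genes. Without any 1 array, the Epb42 change stayed between 3.97 and 4.57 on the log2 scale in CH against NX.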

How the results depend on the processing

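Over the alternatives for single genes, 235 values of CH against NX, 205 of REC against NX and 235 of CH against REC kept their direction and their side of the threshold, while 3, 26 and 2 lost the call and 1, 7 and 2 changed sign. Member probe sets on the hybridization control scaling were 14 higher and 1 lower in CH against NX, 1 higher in REC against NX, and 15 higher and 2 lower in CH against REC, and array weights gave 11 lower in REC against NX. The hybridization control scaling moved the median of all probe sets to -0.71, 0.40 and -1.13 in these comparisons. Counts on it here and below have no share of all probe sets beside them. Without any 1 array the counts were 24 to 25 higher in CH against NX, 5 to 7 lower in REC against NX and 24 to 25 higher in CH against REC.

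Relative to the erythroid list, CH against NX gave 9 higher under quantile normalization, 7 lower with a pseudocount of 1 and 6 lower without dim probe sets. REC against NX gave 6 higher without dim probe sets, 5 higher and 2 lower at an adjusted p under 0.01, and 6 to 11 higher without any 1 array. CH against REC gave 8 lower without dim probe sets.

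Partners on the hybridization control scaling were 4 higher and 6 lower in CH against NX, 4 higher in REC against NX and 4 higher in CH against REC. In CH against NX, 5 were lower under quantile normalization and with array weights and 2 to 4 without any 1 array. In REC against NX, 2 were lower with only the 8 arrays compared and 1 to 2 without any 1 array. Paralogs on the hybridization control scaling were 1 higher and 11 lower in CH against NX, 4 higher in REC against NX, and 1 higher and 16 lower in CH against REC. In REC against NX, none was higher (0) with a pseudocount of 1 or at an adjusted p under 0.01, 2 were higher with array weights, and none was lower (0) under median centring, in the ANOVA without moderation or at an adjusted p under 0.01; without any 1 array, 0 to 1 were higher and 0 to 1 lower. CH against REC gave 2 to 4 higher without any 1 array.

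On the hybridization control scaling the sign turned for Add1 (-0.14 in CH against NX, 0.46 in REC against NX, -0.60 in CH against REC), Tmod1 (0.53 in REC against NX) and Tpm1 (0.76 in REC against NX, -0.65 in CH against REC). Tpm1 in REC against NX was 0.11 under median centring and -0.16 to 0.08 without any 1 array (0.0832 without REC replicate 3, 0.05 without NX replicate 4), and Add2 in REC against NX was -0.27 as the mean of its probe sets. The ratio of Mpp1 to Mpp2 was -1.55 under quantile normalization and -0.19 with a pseudocount of 1 in CH against NX, and -0.26 under quantile normalization in REC against NX. Its highest value over the alternatives in REC against NX was 1.95. The cause was not tested.

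The replicate numbers were not taken as pairs, since not every pair's correlation passed 0.1 in any comparison: deviations of same-numbered arrays correlated between -0.20 and 0.44, with 0.44, -0.20, 0.19 and 0.10 in CH against NX, and 4, 2 and 2 of 8 arrays correlated best with their own number in CH against NX, REC against NX and CH against REC. With a replicate block 25 member probe sets were higher in CH against NX, 6 lower in REC against NX and 24 higher in CH against REC, and Mpp1 in REC against NX lost its call (adjusted p = 0.0767).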
